A study of Mus musculus with 17 samples.

Results

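The genes described here code for enzymes that hydroxylate and crosslink collagen. They are the lysyl oxidases Lox, Loxl1, Loxl2, Loxl3 and Loxl4, the lysyl hydroxylases Plod1, Plod2 and Plod3, and the prolyl 4-hydroxylase alpha subunits P4ha2 and P4ha3. The 10 genes were chosen by name, for what the enzymes do, from the 35896 gene IDs in each deposited file. Earlier results of these data were known when they were chosen.

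RNA sequencing was run on 17 libraries of mouse pancreatic stellate cells, cells of the pancreas that can give rise to collagen-producing fibroblasts. All cells were wild type, of strain C57BL/6J, from the lines PSC4 and PSC5, embedded in Matrigel (a basement membrane gel) and treated for 4 days. Control medium had 5 libraries, TGF-beta at 20 ng/mL had 4, medium conditioned by pancreatic tumour organoids (CM) had 4, and the same conditioned medium containing 300 nM neratinib (a kinase inhibitor directed at ERBB receptors) had 4. Replicate numbers went with passage, from 23 to 25 in PSC4 and 27 to 28 in PSC5, so the replicates were passages of 2 lines and p-values measure the spread between these libraries only. Because each library is a bulk sample, fewer cells and less RNA per cell cannot be told apart. The titles of CM samples also carry a code, T6 or T8, which the labels do not explain: replicate 1 had T8 and replicate 2 had T6 in both lines.

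Fibrillar collagen is hydroxylated inside the cell and crosslinked outside it. Prolyl 4-hydroxylases act on proline residues, which stabilises the triple helix, and lysyl hydroxylases act on lysine residues, which sets the kind of crosslink that can form. After secretion the copper-dependent lysyl oxidases turn lysine and hydroxylysine side chains into aldehydes, which condense into the covalent crosslinks that stiffen the matrix of fibrotic pancreas and pancreatic tumours.

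Library totals lay between 22168953 and 29421447 counts. All 10 genes passed the filter on low counts, and the lowest value was 37 counts, for P4ha3 in 1 library with neratinib. Summed over 10 markers of fibroblasts or stellate cells, the level was between 4072 and 6494 CPM (library counts scaled to a common total after TMM correction) in control medium, CM and CM with neratinib, and at least 9187 CPM with TGF-beta, whose sum holds Col1a1 and Col1a2. Markers of 10 epithelial genes summed to at most 8.55 CPM in control medium and 15.4 CPM with TGF-beta, but to between 8.43 and 157 CPM in CM and between 3.58 and 310 CPM with neratinib. Macrophage markers summed to at most 67.9 CPM in any library, with Adgre1 at 0 throughout, and endothelial markers to at most 5.63 CPM. Replicate 1 of PSC4, which has 1 library in each group except TGF-beta, stood apart from its line: on the third principal component of log2 CPM its 3 libraries lay between 1.76 and 37.0, where the PSC5 libraries lay between -3.6 and 36.2 and the other PSC4 libraries between -56.8 and -19.8. Where removing these 3 libraries changed the call of a gene named here, the value without them is given beside it.

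With TGF-beta, 6 of the 10 enzyme genes rose and none fell. Over all 13923 genes tested, 40.2% were called in that comparison, 19.7% as higher and 20.5% as lower. A gene is called here when its adjusted p (quasi-likelihood test of edgeR, Benjamini-Hochberg over all tested genes) was under 0.05. The median log2 fold change of the 10 genes was 0.62, beside -0.02 for all genes. In CM only Plod3 was called, as higher, where 14.2% of all genes were called (7.05% higher and 7.14% lower), and the median of the 10 genes was 0.04. Neratinib in CM, compared with CM alone, gave no called member at a background of 20.5% (10.8% higher and 9.63% lower), although 4 of the 10 had an unadjusted p under 0.05 and DESeq2 called 3, where it called 25.5% of all genes. With the replicate number as a block 4 members were called as lower, where 32.8% of all genes were called and 16% as lower. CM with neratinib compared with control medium gave 2 higher and 4 lower members, at a background of 43.1% (22.2% higher and 20.9% lower). The 3 comparisons with control medium share its 5 libraries. With upper-quartile instead of TMM factors, the called genes that were higher went from 49% to 41.3% with TGF-beta, from 49.7% to 37.5% in CM and from 51.4% to 41.1% with neratinib against control medium, with all-gene medians of -0.07, -0.05 and -0.06. Shares of called members near these backgrounds say nothing particular about the enzymes, as for the 1 in CM and the 2 higher with neratinib against control medium. Whether any count of members differs from its background was not tested. No background was computed for ranges that did not overlap between groups, so statements of that kind below describe the named genes only.

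**Figure D1:**
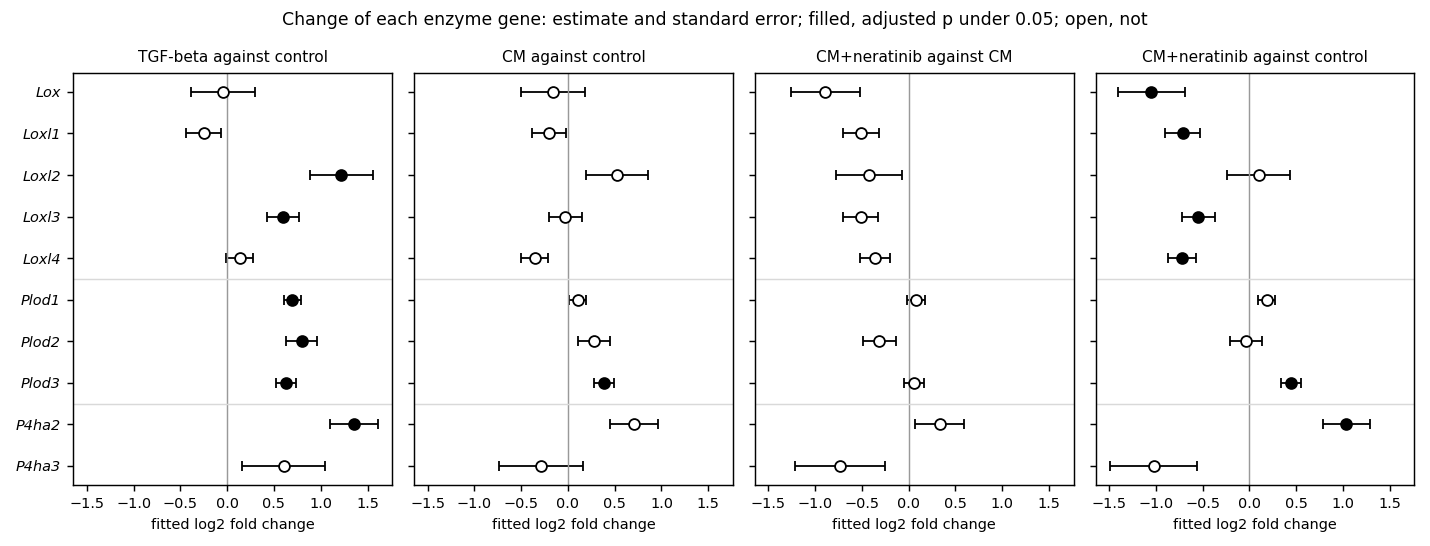
Fitted log2 fold change (horizontal axis) of the 10 enzyme genes in 4 comparisons, with standard errors as bars; filled points had an adjusted p under 0.05. The 6 filled points for TGF-beta all lie to the right of 0, while in CM with neratinib against control medium Lox, Loxl1, Loxl3 and Loxl4 lie to the left and Plod3 and P4ha2 to the right.

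The prolyl 4-hydroxylase enzyme joins 2 alpha subunits, which hold the active site, with 2 beta subunits (P4hb, also a protein disulfide isomerase). P4ha2 (ENSMUSG00000018906, chr11:54100095-54131665, plus strand, GRCm38) had the largest fitted rise with TGF-beta among the 10 genes. Its level is given below in each library in the order PSC4 then PSC5, by replicate number, as for the genes that follow. The control libraries held 43.2, 46.2, 44.5, 46.7 and 47.0 CPM of P4ha2, a range of under 4 CPM. With TGF-beta the values were 97.5, 61.7, 234 and 102 CPM, all above every control library. The fitted log2 fold change was 1.35 (SE 0.26, adjusted p = 0.00074). PSC5 replicate 1 stood far above the other TGF-beta libraries, and without it the change was 0.94 (adjusted p = 0.005). In CM the values were 64.8, 79.4, 96.5 and 64.4 CPM, again above every control library. The CM change of 0.71 (SE 0.25) was not called in the model of all groups (adjusted p = 0.075), and was called by DESeq2 (adjusted p = 0.030) and in a model of the 2 groups alone (adjusted p = 0.0037). With neratinib the values were 92.3, 93.2, 120 and 77.4 CPM, and each was higher than its CM partner of the same line and replicate number. Against control medium the log2 fold change with neratinib was 1.04 (SE 0.25, adjusted p = 0.0046).

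P4ha3 (ENSMUSG00000051048, chr7:100285520-100319699, plus strand) was the least abundant member per kilobase of exon. Control libraries held 19.6, 19.0, 21.5, 19.9 and 20.6 CPM. The TGF-beta values were 35.5 and 45.7 CPM in PSC4 but 20.3 and 21.03 CPM in PSC5, where they overlapped the control libraries, and the change of 0.60 (SE 0.44) was not called (adjusted p = 0.30) outside the model of the 2 groups alone (0.59, adjusted p = 0.026). In CM the values were 13.1, 19.8, 20.9 and 12.0 CPM. The libraries with neratinib held 1.57, 12.7, 18.8 and 6.19 CPM, from far below the control range to just under it. This difference from control medium, -1.02 (SE 0.47), was not called (adjusted p = 0.090). It was called with the replicate number as a block (-1.14, adjusted p = 0.036, where 52.4% of all genes were called) and without the neratinib library of PSC5 replicate 1 (-1.58, adjusted p = 0.012).

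P4ha1, the alpha subunit gene outside the 10, accounted for most of the alpha subunit RNA. Per kilobase of exon it made up 75.1% ± 1.56 (SD, n = 5) of the 3 alpha subunits in control medium, with P4ha2 at 13.2% ± 0.80 and P4ha3 at 11.7% ± 0.94. P4ha1 rose with TGF-beta by 1.07 (SE 0.13, adjusted p = 2.0e-05), in CM by 0.58 (SE 0.13, adjusted p = 0.011) and with neratinib against control medium by 0.98 (SE 0.13, adjusted p = 7.2e-05). All 4 ratios of neratinib to CM within line and number were above 1 for P4ha1, from 1.22 to 1.43, but the difference of 0.40 was called only with the replicate block (adjusted p = 0.018), with PSC4 replicate 1 counted as PSC5 (adjusted p = 0.045) and by DESeq2 (adjusted p = 0.028). P4hb rose with TGF-beta by 0.35 (SE 0.09, adjusted p = 0.0076) and was not called in CM (0.18) or with neratinib against control medium (0.06). With neratinib P4ha3 made up 2.94% ± 2.00 (SD, n = 4) of the alpha subunits and P4ha1 82.0% ± 2.46.

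Promoter sequence from RefSeq (GRCm38.p6), the 250 bases before the annotated start, was at hand for 5 of the 10 genes: Loxl4, Plod1, Plod3, P4ha2 and P4ha3. It was searched on both strands for ACGTG, the core of the hypoxia response element, CAGAC, a SMAD-binding element, and TGANTCA, an AP-1 element, and no window of the 7 genes held more than 1 of these motifs. These occurred in 16.6%, 42.2% and 6.75% of 32817 promoter windows of the same length. ACGTG was found once in P4ha2 and Plod3, and also once in P4ha1 and P4hb. CAGAC was found once in Plod1 and Loxl4, P4ha3 held none of the 3 motifs, and TGANTCA was found in none of the 5. The windows of P4ha2 and Plod1 are printed because, of the genes called with TGF-beta, P4ha2 had the largest fitted rise and Plod1 the smallest standard error. The P4ha2 window precedes the start in RefSeq, which lies inside the gene as GENCODE annotates it. The capitals mark the motif, ACGTG at 78 bases before the start in P4ha2 (chr11:54100674-54100923, plus strand) and CAGAC, read here on its other strand, at 74 bases before the start in Plod1 (chr4:147936777-147937026, minus strand, printed in the direction of transcription). A match describes the letters only.
P4ha2: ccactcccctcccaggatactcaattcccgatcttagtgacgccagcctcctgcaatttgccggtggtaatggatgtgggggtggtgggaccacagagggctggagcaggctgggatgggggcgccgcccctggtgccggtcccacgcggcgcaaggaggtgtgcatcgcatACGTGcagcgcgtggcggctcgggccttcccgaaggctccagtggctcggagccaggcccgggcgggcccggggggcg
Plod1: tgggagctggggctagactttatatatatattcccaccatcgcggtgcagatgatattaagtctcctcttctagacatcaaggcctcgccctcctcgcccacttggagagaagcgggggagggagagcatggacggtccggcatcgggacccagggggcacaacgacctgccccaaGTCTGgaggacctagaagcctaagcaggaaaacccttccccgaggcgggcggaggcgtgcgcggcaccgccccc

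All 3 lysyl hydroxylase genes rose with TGF-beta, and their TGF-beta values lay above every control library. The share of all genes separated in this way was not computed. Plod1 (ENSMUSG00000019055, chr4:147909753-147936767, minus strand), whose enzyme hydroxylates lysines in the helical part of collagen, held 91.2, 100, 95.1, 102 and 92.5 CPM in control medium. With TGF-beta it held 168, 159, 163 and 131 CPM. Its fitted rise of 0.70 (SE 0.09, adjusted p = 3.6e-05) had the smallest standard error of the 6 called members. In CM Plod1 held 99.3, 110, 110 and 92.8 CPM and with neratinib 97.1, 120, 123 and 95.4 CPM, both overlapping control medium. The difference of 0.18 between neratinib and control medium was called only with the replicate block (adjusted p = 0.0094, against 0.12 without it).

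Plod2 (ENSMUSG00000032374, chr9:92542223-92608428, plus strand) codes for the enzyme that hydroxylates lysines in the telopeptides, the step that precedes hydroxylysine-derived crosslinks in fibrosis. Its control values were 108, 117, 117, 118 and 104 CPM. With TGF-beta Plod2 held 184, 189, 253 and 161 CPM, which was a fitted rise of 0.80 (SE 0.17, adjusted p = 0.0016). The values in CM, 130, 145, 150 and 124 CPM, were again all above the control range, but the change of 0.28 (SE 0.17) was not called (adjusted p = 0.30) outside the model of the 2 groups alone (adjusted p = 0.027). With neratinib they spread from below to above the control range, at 85.2, 130, 147 and 78.9 CPM. Each of the 4 was lower than its CM partner, by ratios of 0.638 to 0.984, and the change of -0.31 (SE 0.18) was called only with the replicate block (-0.35, adjusted p = 0.034) or without the neratinib library of PSC5 replicate 1 (-0.49, adjusted p = 0.046).

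Plod3 (ENSMUSG00000004846, chr5:136987019-136996648, plus strand) codes for an enzyme that also glycosylates hydroxylysine. It was the most abundant of the 3 genes, with 52.3% ± 1.62 (SD, n = 5) of the lysyl hydroxylase RNA per kilobase in control medium. Its control values were 158, 195, 182, 168 and 169 CPM. With TGF-beta the values were 301, 283, 254 and 236 CPM, which was a fitted rise of 0.63 (SE 0.11, adjusted p = 0.00026). In CM they were 214, 243, 259 and 192 CPM, overlapping control medium only through the lowest CM library. The CM change of 0.39 (SE 0.11, adjusted p = 0.025) was the only one called among the 10 genes, and it was no longer called on leaving out CM PSC4 replicate 2 or CM PSC5 replicate 1 or any of 3 control libraries (PSC4 replicate 1, PSC5 replicates 1 and 2), with adjusted p from 0.050 to 0.10. With neratinib Plod3 held 211, 250, 274 and 209 CPM, above every control library, at 0.45 (SE 0.11, adjusted p = 0.0038) against control medium. Its exons share 529 bases with the gene Znhit1 on the opposite strand, and whether the libraries kept the strand is not given in the sources used here.

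The lysyl oxidases did not move as 1 family. With TGF-beta Loxl2 and Loxl3 rose, while Lox, Loxl1 and Loxl4 were not called, and against control medium CM with neratinib gave lower Lox, Loxl1, Loxl3 and Loxl4. Lox (ENSMUSG00000024529, chr18:52516067-52529867, minus strand), the founding member, crosslinks collagen and elastin and was the most abundant of the family. It held 638, 766.5, 951, 791.5 and 542.5 CPM in control medium and 695, 693, 911 and 604 CPM with TGF-beta, so the 2 groups covered the same range (log2 fold change -0.04, SE 0.35, adjusted p = 0.93). In CM it held 634, 732, 742 and 567 CPM. With neratinib the values were 127, 414, 698.5 and 221 CPM, of which 3 lay below every control and CM library and PSC5 replicate 1 lay among them. Against control medium the change was -1.05 (SE 0.36, adjusted p = 0.028). This call rested on few libraries: it was lost with the 3 libraries of PSC4 replicate 1 removed (-0.76, adjusted p = 0.073), in the model of the 2 groups alone (adjusted p = 0.099) and on leaving out either of 2 neratinib libraries (PSC4 replicate 1, PSC5 replicate 2) or either of 2 control libraries (PSC4 replicate 3, PSC5 replicate 1). Without the neratinib library of PSC4 replicate 1 the change was -0.72 (adjusted p = 0.069).

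Loxl1 (ENSMUSG00000032334, chr9:58287738-58313186, minus strand), best known for elastic fibres, was the next most abundant. In control medium it held 324, 350, 383.5, 351.5 and 302 CPM. With TGF-beta it held 287, 239.5, 411 and 221 CPM, on both sides of the control range (-0.25, SE 0.18, adjusted p = 0.30), and without PSC5 replicate 1 the change was -0.46 (adjusted p = 0.041). In CM it held 280, 352, 282 and 281 CPM. The neratinib values, 136, 239, 240.5 and 226 CPM, lay below every control and every CM library. Against control medium the fitted change of Loxl1 was -0.71 (SE 0.19, adjusted p = 0.0069), which was called under each of 16 alternatives.

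Loxl2 (ENSMUSG00000034205, chr14:69609068-69695834, plus strand) crosslinks basement membrane collagen IV and is one of the family's enzymes linked to fibrosis. Control values were 143, 86.9, 84.5, 143 and 137 CPM. With TGF-beta Loxl2 held 181, 135, 710 and 284 CPM, and only PSC4 replicate 3 overlapped control medium. The fitted rise of 1.22 (SE 0.34, adjusted p = 0.0098) was 0.75 without PSC5 replicate 1 (adjusted p = 0.039). In CM it held 208, 110, 222 and 176 CPM and with neratinib 109, 85.7, 253 and 118 CPM, and neither difference from control medium was called (0.52 with adjusted p = 0.32, and 0.10 with adjusted p = 0.83).

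Loxl3 (ENSMUSG00000000693, chr6:83034173-83052562, plus strand) was steady in control medium, at 80.7, 88.7, 81.1, 86.5 and 82.8 CPM. With TGF-beta it held 149, 133, 137 and 88.8 CPM, the lowest only just above the highest control library. Its rise of 0.60 (SE 0.17, adjusted p = 0.013) was not called without the TGF-beta library of PSC4 replicate 2 (0.49, adjusted p = 0.056). CM left it at 80.0, 83.1, 85.7 and 80.9 CPM, within 1 CPM of the control range. With neratinib it held 35.1, 63.6, 77.1 and 55.3 CPM, all below every control and CM library. It fell by 0.54 against control medium (SE 0.18, adjusted p = 0.023), but not past the threshold with the PSC4 replicate 1 libraries removed (-0.36, adjusted p = 0.071) or without the neratinib library of PSC4 replicate 1 (-0.34, adjusted p = 0.066) or PSC5 replicate 2 (-0.52, adjusted p = 0.057). Its exons share 535 bases with Htra2 on the opposite strand.

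Loxl4 (ENSMUSG00000025185, chr19:42593982-42612813, minus strand) was the least abundant of the family per kilobase. It held 57.7, 45.4, 35.8, 51.2 and 58.6 CPM in control medium and 55.0, 47.4, 70.9 and 47.6 CPM with TGF-beta, which overlapped (0.13, SE 0.15, adjusted p = 0.51). In CM the values were 38.6, 40.5, 33.3 and 43.9 CPM, each below its control partner of the same line and number, and the change of -0.36 (SE 0.15) was not called (adjusted p = 0.12). With neratinib it held 24.1, 30.5, 31.3 and 36.8 CPM. Against control medium Loxl4 fell by 0.72 (SE 0.15, adjusted p = 0.0017) and was called under each of 16 alternatives, at -0.56 with the PSC4 replicate 1 libraries removed.

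**Figure D2:**
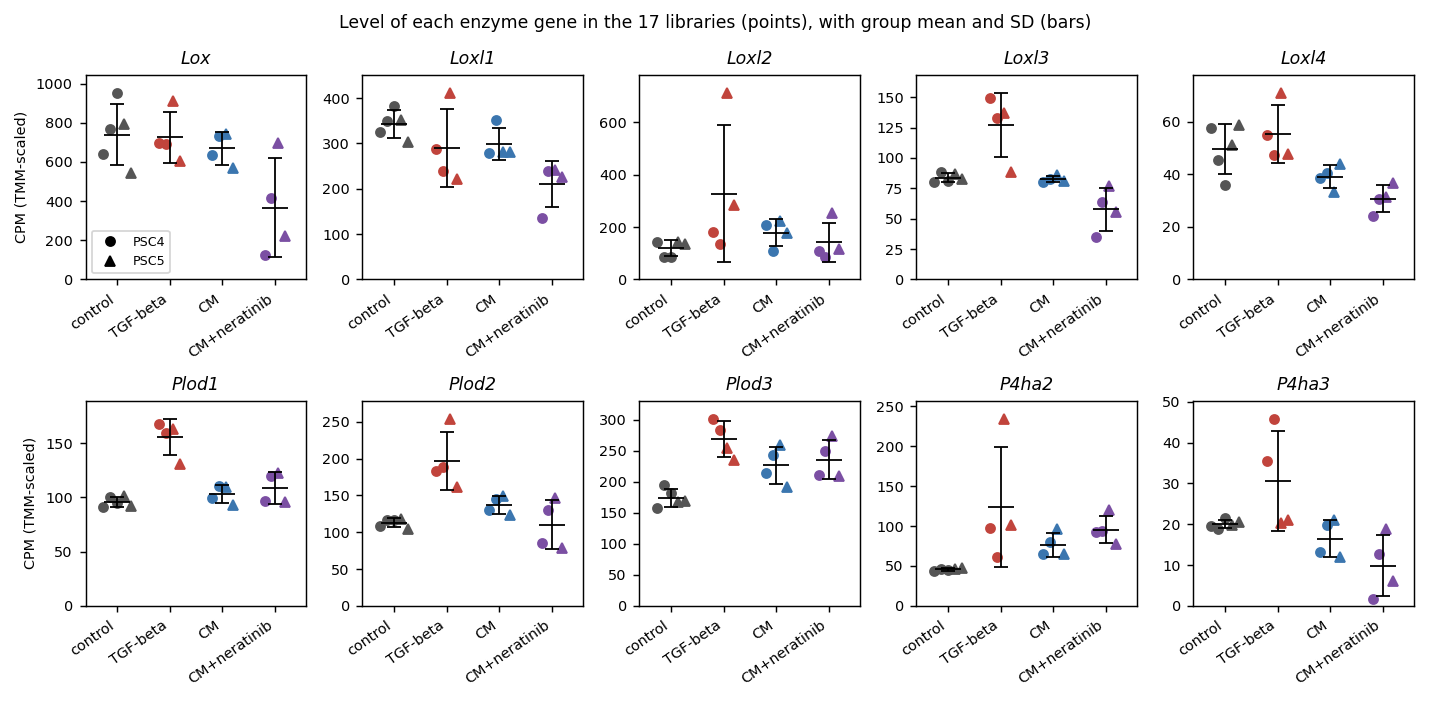
Level (CPM, vertical axes from 0) of each of the 10 genes in the 17 libraries by group; circles are PSC4, triangles PSC5, bars the group mean and SD. The TGF-beta libraries lie above all control libraries for Plod1, Plod2, Plod3, P4ha2 and Loxl3. The share of all genes separated in this way was not computed. With TGF-beta, 1 PSC5 library stands high for Loxl2 (710 CPM) and P4ha2 (234 CPM), and the neratinib libraries spread widely for Lox.

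The comparison of CM with and without neratinib asks what the drug does within tumour-conditioned medium. No library had neratinib in control medium, and whether the differences come through ERBB receptors was not tested. Within line and replicate number, all 4 ratios of neratinib to CM were below 1 for Lox (0.200 to 0.942), Loxl1 (0.486 to 0.854), Loxl3 (0.439 to 0.900), Loxl4 (0.626 to 0.940), Plod2 (0.638 to 0.984) and P4ha3 (0.120 to 0.899). P4ha2 was the only member with all 4 ratios above 1 (1.17 to 1.42). Plod1 and Plod3 had 3 of 4 above 1 and stayed between 0.978 and 1.12. The share of all genes with 4 ratios on the same side of 1 was not computed, so these ratios describe the members only. In the model without pairing the log2 fold changes were -0.89 for Lox (SE 0.37, adjusted p = 0.099), -0.51 for Loxl1 (SE 0.19, adjusted p = 0.073), -0.51 for Loxl3 (SE 0.19, adjusted p = 0.063) and 0.33 for P4ha2 (SE 0.27, adjusted p = 0.41). With the replicate number as a block, 4 members were called as lower, where 32.8% of all genes were called and 16% as lower: Lox at -1.07 (adjusted p = 0.013), Loxl1 at -0.53 (adjusted p = 0.028), Loxl3 at -0.55 (adjusted p = 0.018) and Plod2 at -0.35 (adjusted p = 0.034). Without the neratinib library of PSC5 replicate 1, 3 were called, at a background of 26.1%, with Lox at -1.42 (adjusted p = 0.0052).

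For Lox the size of these ratios did not follow the medium code. The T8 pairs gave 0.200 in PSC4 and 0.942 in PSC5, the lowest and highest of the 4, and the T6 pairs gave 0.566 and 0.390. The T8 ratios of P4ha2, 1.42 and 1.24, were both above its T6 ratios of 1.17 and 1.20. Code, replicate number and passage cannot be told apart within a line. Col1a1, the main substrate chain, had ratios from 0.245 to 1.02, and its neratinib values of 422 CPM in PSC4 replicate 1 and 1671 CPM in PSC5 replicate 1 were in the same order as those of Lox. The library of PSC4 replicate 1 with neratinib was the lowest of its group for Lox, Loxl1, Loxl3, Loxl4 and P4ha3 and not for Loxl2, Plod1, Plod2, Plod3 or P4ha2. Of 9 epithelial markers tested, 7 were called as higher in CM than in control medium and 0 between CM with and without neratinib. In CM with neratinib against control medium all 9 were higher (median 5.85), and 3 of 4 endothelial markers tested were lower. Their part in the results for CM and for neratinib was not tested.

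**Figure D3:**
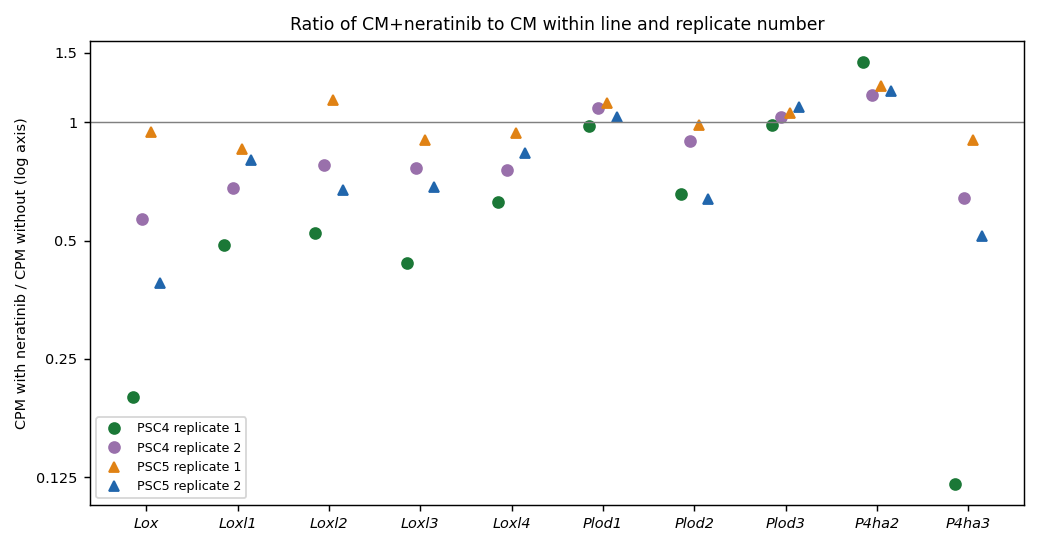
Ratio of the CPM with neratinib to the CPM in CM alone (vertical log axis) for each gene, within line and replicate number; circles are PSC4 and triangles PSC5, and the line marks a ratio of 1. All 4 points lie below the line for Lox, Loxl1, Loxl3, Loxl4, Plod2 and P4ha3 and above it for P4ha2. The share of all genes with 4 points on the same side was not computed.

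Set directly against TGF-beta, CM gave 4 lower members and none higher: Loxl3 (-0.63), Loxl4 (-0.49), Plod1 (-0.59) and Plod2 (-0.52). Over all genes 35.3% were called, 17.8% higher and 17.5% lower. With the replicate block Loxl2 (-0.88, adjusted p = 0.0082) and P4ha2 (-0.67, adjusted p = 0.024) were called too, where 43.4% of all genes were called. With the PSC4 replicate 1 libraries removed Loxl2 was called (-0.98, adjusted p = 0.028) and Plod2 was not (-0.49, adjusted p = 0.057). Plod1 was called under all 15 alternatives, whereas Plod2 was not called in 6 of them and Loxl4 in 3. Leaving out the TGF-beta library of PSC4 replicate 2 left 1 called member. Over the libraries left out in turn, all genes called ranged from 4079 to 4619. CM with neratinib gave 7 lower members against TGF-beta and none higher, at a background of 44% (23.1% higher and 20.9% lower). These were Lox (-1.005, adjusted p = 0.038), Loxl2 (-1.12), Loxl3 (-1.14), Loxl4 (-0.85), Plod1 (-0.51), Plod2 (-0.83) and P4ha3 (-1.63). P4ha3 was not called in 1 of 15 alternatives (adjusted p = 0.11), and its change was -1.18 with the PSC4 replicate 1 libraries removed. Without the TGF-beta library of PSC5 replicate 1 the change of Loxl2 was -0.61 and was not called (adjusted p = 0.10), and Lox lost its call in 7 of 15 alternatives, as with the PSC4 replicate 1 libraries removed (-0.69, adjusted p = 0.086). Plod3 (-0.18) and P4ha2 (-0.31) were not called between these groups.

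The lines were also compared in the same media. No member was called between PSC5 and PSC4, where 6.97% of all genes were called. Loxl2 came nearest, at 0.81 higher in PSC5 (SE 0.25, adjusted p = 0.058). With the 3 libraries of PSC4 replicate 1 removed it was called at 1.101 (adjusted p = 0.0026), and with them counted as PSC5 it was called at 1.04 (adjusted p = 0.0015). In control medium Loxl2 held 86.9 and 84.5 CPM in PSC4 replicates 2 and 3, and 143 CPM in the library labelled PSC4 replicate 1, where PSC5 held 143 and 137 CPM. Whether a medium acted differently in the lines was tested by interaction. No gene was called for TGF-beta, CM or neratinib in CM (0% of 13923 genes each), with 601, 43 and 237 genes at an unadjusted p under 0.05, and DESeq2 called 29, 0 and 1 genes but no member. The TGF-beta effect on Loxl2 was 0.59 (SE 0.41) within PSC4 and 1.83 (SE 0.47) within PSC5, a difference of 1.24 (SE 0.63). For P4ha2 the effects were 0.83 (SE 0.31) and 1.84 (SE 0.35), a difference of 1.003 (SE 0.47). Neither difference was called (adjusted p = 1 for both), and without the TGF-beta library of PSC5 replicate 1 they were 0.43 and 0.28.

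Levels of different genes can be compared only per length, and are given here as mean CPM per kilobase of exon. In control medium the order was Lox (154 ± 32.6, SD, n = 5), Loxl1 (104 ± 9.31), Plod3 (38.6 ± 3.14), Loxl2 (21.99 ± 5.62), Plod2 (20.9 ± 1.17), Loxl3 (18.2 ± 0.77), Plod1 (14.2 ± 0.69), Loxl4 (11.8 ± 2.24), P4ha2 (7.29 ± 0.26) and P4ha3 (6.42 ± 0.31). The ranges of the neighbours Lox and Loxl1, Loxl2 and Plod2, and Plod1 and Loxl4 overlapped between libraries, and the other neighbours did not overlap. Lox made up 49.3% ± 4.82 (SD, n = 5) of the summed lysyl oxidase level in control medium and 37.6% ± 11.6 (SD, n = 4) with neratinib. Loxl2 made up 7.26% ± 2.38 in control medium and 16.3% ± 8.18 with TGF-beta. The ranges overlapped in both cases. They were 43.3% to 55.7% and 26.2% to 50.4% for Lox, and 4.4% to 9.6% and 8.8% to 26.6% for Loxl2.

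Summed over a family, the lysyl oxidases stood at 310 ± 36.3 CPM per kilobase in control medium (SD, n = 5). The sum was 341 ± 103 with TGF-beta, 291 ± 21.3 in CM and 186 ± 79.5 with neratinib (SD, n = 4 each), all with overlapping ranges. For the lysyl hydroxylases the sum was 73.7 ± 4.41 in control medium and 119 ± 11.9 with TGF-beta, and the lowest TGF-beta library (101) lay above the highest control library (79.6). The prolyl 4-hydroxylase alpha subunits, P4ha1 included, had the largest relative difference, with a TGF-beta mean 2.13 times the control mean and a neratinib mean 1.83 times it. The 9 fibrillar substrates (8 fibrillar collagen chains and elastin) had a TGF-beta mean 3.40 times the control mean, more than any enzyme family. Relative to 1000 units of substrate RNA, the lysyl oxidases stood at 515 ± 123 in control medium and 165 ± 30.1 with TGF-beta, and the lysyl hydroxylases at 122 ± 24.4 and 59.4 ± 12.5, with no overlap of the ranges in either case. With neratinib the substrate mean was 0.602 times the control mean. Per 1000 units of substrate, the lysyl hydroxylases then stood at 258 ± 69.9 and the prolyl 4-hydroxylase alpha subunits at 298 ± 98.0. The latter stood at 90.5 ± 9.83 in control medium. The lysyl oxidases stood at 497 ± 35.6 with neratinib, and their range (465 to 533) lay inside that of control medium (399 to 697). These sums were not tested.

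**Figure D4:**
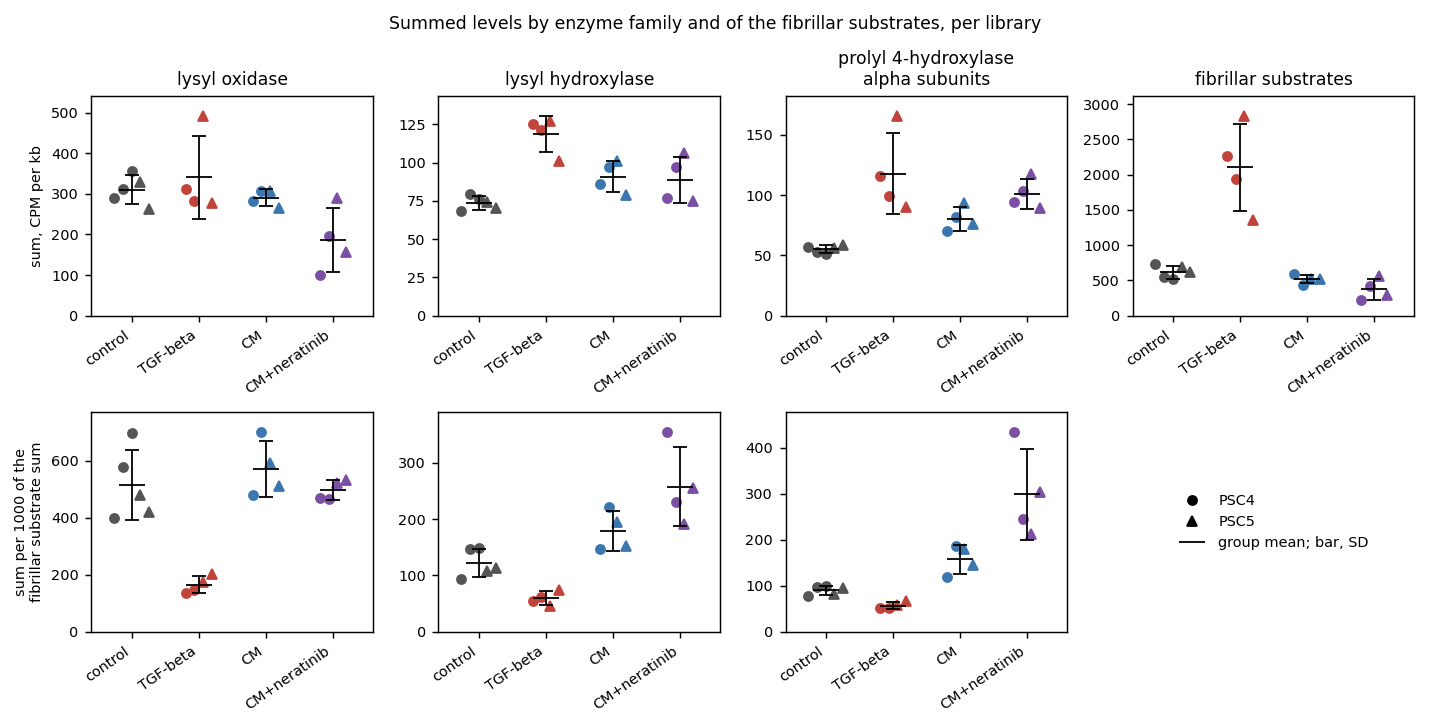
Summed level per kilobase of exon of the 3 enzyme families and the fibrillar substrates (upper row), and each family per 1000 units of substrate (lower row), by library; circles are PSC4, triangles PSC5, bars the group mean and SD. With TGF-beta the upper row lies above control medium for both hydroxylase families and the substrates, and the lower row lies below control medium in all 3 families.

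Other genes of collagen maturation were taken from a list of 22, of which 21 were tested. The shares of all genes called were 40.2% with TGF-beta, 14.2% in CM, 20.5% for neratinib within CM and 43.1% for neratinib against control medium. With TGF-beta 12 rose and none fell (median 0.35), led by Tll1 (2.82, SE 0.23), a procollagen C-proteinase, Pcolce2 (2.39, SE 0.28), an enhancer of that cleavage, and Tgm2 (1.33, SE 0.30), a transglutaminase that forms another kind of crosslink. Tll1 rose from a mean of 4.98 to 37.7 CPM. In CM 3 rose and 2 fell (median 0.02). Those that rose were Adamts3 (1.71), a procollagen N-proteinase, P4ha1 and Tmem38b (0.56), an ER potassium channel, and those that fell were P3h2 (-1.24), a prolyl 3-hydroxylase, and Pcolce2 (-1.10). Of these 5, P4ha1 alone was called without each library in turn, and P3h2 was not called with the PSC4 replicate 1 libraries removed (adjusted p = 0.093). Neratinib inside CM called none of the 21, with 4 at an unadjusted p under 0.05. Against control medium, CM with neratinib gave 4 higher and 4 lower (median 0.07), among them Tmem38b (0.82) and the collagen chaperone Serpinh1 (0.24, adjusted p = 0.038, lost in 11 alternatives) as higher, and P3h2 (-2.10), Tll1 (-1.42) and Pcolce2 (-0.89) as lower.

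The fibrillar substrates, on which these enzymes act, rose with TGF-beta in 8 of 9 (median 1.56). Col5a3 rose by 3.599 (SE 0.39) and Col1a1 by 2.13 (SE 0.29), from 1751 ± 324 (SD, n = 5) to 7751 ± 2201 CPM (SD, n = 4). In CM 2 fell, Col11a1 (-1.02) and Col5a1 (-0.75), of which Col11a1 lost its call on leaving out any of 8 libraries and Col5a1 on leaving out any of 3. Adding neratinib to CM lowered both again (-1.02 and -0.70) and raised Col11a2 by 3.51 (SE 0.29), from 1.86 to 21.6 CPM, and the falls of Col11a1 and Col5a1 were lost with the PSC4 replicate 1 libraries removed (adjusted p = 0.21 and 0.093). Against control medium CM with neratinib gave 1 higher and 6 lower (median -1.05), with Eln at -2.90, lost on leaving out any of 4 libraries, and Col11a1 at -2.04. Over all genes 40.2% were called with TGF-beta, 14.2% in CM, 20.5% for neratinib within CM and 43.1% for neratinib against control medium.

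Lysyl oxidases need copper and the hydroxylases need ascorbate, and 5 of 6 genes for the supply of these cofactors were tested. The background of called genes was 40.2% with TGF-beta, 14.2% in CM, 20.5% for neratinib within CM and 43.1% for neratinib against control medium. With TGF-beta 3 rose, led by the copper importer Slc31a1 (0.40, SE 0.06) and the ascorbate transporter Slc23a2 (0.33, SE 0.08), and Slc31a2, a copper transporter of endosomes, fell by 0.48 (SE 0.09). Slc31a1 alone was called in CM (0.35, SE 0.06). Neratinib raised Slc31a2 (0.32) and Slc23a2 (0.31) within CM, and 3 of the 5 were higher than in control medium. The calls within CM were lost in 8 of 15 alternatives for Slc31a2 and 5 for Slc23a2, including the removal of the PSC4 replicate 1 libraries (adjusted p = 0.10 and 0.058). Since P4ha1, P4ha2 and Plod2 are known targets of hypoxia-inducible factors, 15 hypoxia-response genes were counted as well. With TGF-beta 10 rose and 1 fell (median 1.12), led by Ankrd37 (2.17, SE 0.31) and Egln3 (2.09, SE 0.33), with Adm lower at -2.57 (SE 0.61). In CM 8 rose and none fell (median 0.50), led by Ankrd37 (1.47) and Pdk1 (1.34). Inside CM neratinib gave 2 higher and 1 lower of the 15, near the share called over all genes. Neratinib raised Vegfa (0.63, SE 0.15) and Slc2a1 (0.53, SE 0.18) and lowered Pfkfb4 (-0.33, SE 0.09). The call of Slc2a1 was lost in 8 of 15 alternatives and that of Pfkfb4 in 4, including the removal of the PSC4 replicate 1 libraries (0.33 with adjusted p = 0.255, and -0.27 with adjusted p = 0.065), and that of Vegfa in the model of the 2 groups alone (adjusted p = 0.071). Against control medium the count with neratinib was 10 higher and 1 lower (median 1.07). The all-gene medians were between -0.02 and 0.0046 in these 4 comparisons. With neratinib against control medium P4ha1 (0.98) and P4ha2 (1.04) were called as higher, and Plod2 (-0.04) was not called. Whether hypoxia signalling had a part in the changes of the enzyme genes was not tested.

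For each enzyme gene the genes with the most similar pattern were sought as those with the smallest root mean square difference in log2 CPM, centred on each gene's mean over the 17 libraries. For Plod1 these were Zdhhc9 (0.084) and Pdia5 (0.088), where Plod1 itself varied by 0.29 about its mean. Plod3 lay nearest Rab4b (0.10) and Ptbp3 (0.11), at a spread of 0.27 of its own, and Plod2 nearest Rrbp1 (0.18) and Tyro3 (0.20), at 0.40. P4ha2 lay nearest Pgm1 (0.23) and Higd1a (0.24), at a spread of 0.62, and P4ha3 nearest Slc2a10 (0.36) and Ltbp2 (0.41), at 1.02. Among the lysyl oxidases, Lox lay nearest Zc3h6 and Spry1 (0.29 each), at a spread of 0.72. Loxl1 lay nearest Slc35d2 (0.14) and Slc2a8 (0.17), Loxl2 nearest Sparc (0.41) and Apobr (0.42), Loxl3 nearest Osbpl10 and Tmem263 (0.15 each), and Loxl4 nearest Tpm2 (0.14) and Armcx2 (0.17). These distances describe the 17 libraries, which share media and lines, and carry no test.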

How the data were processed

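RNA was measured in 17 libraries. The authors deposited 1 file per library with expected counts for each Ensembl gene, made with Salmon 1.4.0 on GRCm38 (mm10), per the submitters' processing notes; these also name DESeq 2. The annotation release is not given in the sources used here. Of the values above 0, 74.8% were not whole, and rounding moved no library total by more than 307.9 counts. Gene lengths and positions came from GENCODE M21 (GRCm38), which held an exon length for 35507 of 35896 IDs, and symbols for 35437 IDs.

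Rounded counts went into the quasi-likelihood pipeline of edgeR 4.0.16 (R 4.3.3), with group and cell line as terms, TMM factors and filterByExpr (minimum count 10, minimum total 15), and tested on simulated data first. The p-values were adjusted over all 13923 tested genes. CPM are scaled to TMM-corrected totals, and log2 CPM used a prior count of 2. A count of 3 equals 0.102 to 0.138 CPM. Alternatives were upper-quartile factors, no filter, a replicate block, only the groups compared, PSC4 replicate 1 removed or counted with PSC5, DESeq2 1.42.0, and each library left out. Leaving out libraries in the interaction and line tests, and all alternatives for genes outside the 10, were added after seeing the data.

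All 10 members were named, with P4ha1 and P4hb. From the collagen maturation list, up to 3 called genes of largest rise and of largest fall were named per comparison, and up to 2 of each from the other lists. The members and lists were chosen with earlier results of these data known.

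For the matched ratios and the replicate block, replicate numbers were taken to pair libraries of 1 line, because they go with the passage label. The main model held group and cell line only and did not use this pairing. Deviations from the group means correlated across genes in all 22 pairs of the same line and number (r from 0.12 to 0.63, median 0.30). For the same line and another number the median was -0.08, but r went from -0.54 to 0.61 and 14 of 32 pairs were over 0.1.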

Additional observations from a re-analysis of the deposited data

Results flagged for a closer look

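Each of the 10 genes was checked in its 4 groups, 40 groups in all, for a single library far from the rest, which chance gives in about 1 of 20 groups. Of these, 2 stood out, both for Loxl1. In CM, PSC4 replicate 2 held 352.1 CPM of Loxl1, where the other 3 libraries lay between 279.9 and 281.6 CPM. With neratinib, PSC4 replicate 1 held 136.1 CPM, where the others lay between 225.7 and 240.5 CPM. Without the first library the Loxl1 change in CM was -0.31, and without the second its change with neratinib against control medium was -0.54 and was still called.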

How the results depend on the processing

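Over the 10 genes in 6 comparisons, no called value changed sign under any of the alternatives run. With the replicate block, 4 members were called between CM with and without neratinib, and all genes called numbered 4563 there and 3240 in CM against control medium (2850 and 1976 without it). Other calls of members that the block changed are given beside their results, among the list genes it gave a call to P4ha1 between CM with and without neratinib (0.40, adjusted p = 0.018) and ended the calls of P3h2 in CM (adjusted p = 0.052) and Serpinh1 with neratinib against control medium (adjusted p = 0.050), and it changed no other call. With only the compared groups in the model, called members numbered 3 in CM against control medium and 4 in CM with neratinib against TGF-beta, and genes called between CM with and without neratinib numbered 602. DESeq2 called 2 members in CM against control medium, 3 between CM with and without neratinib and 1 between the lines. Counting PSC4 replicate 1 with PSC5 gave 2986 genes in CM against control medium, 1 member between CM with and without neratinib and 2 between the lines, and removing it gave 1 between the lines. The share of all genes called is not given for each of these settings, so these counts of members say nothing particular about the enzymes.

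Leaving out each library in turn, called members ranged from 0 to 1 in CM against control medium, 0 to 3 between CM with and without neratinib, 1 to 4 in CM against TGF-beta, and 0 to 1 between the lines. All genes called ranged from 801 (without CM PSC5 replicate 1) to 1793 in CM against control medium and from 1748 (without the neratinib library of PSC5 replicate 2) to 3685 between CM with and without neratinib. In CM against TGF-beta they ranged from 4079 to 4619, and for the lines they were not counted. These counts of members also say nothing particular about the enzymes. Uncalled values that changed sign were Lox with TGF-beta (-0.17 to 0.079), Plod3 between CM with and without neratinib (-0.045 to 0.15), Loxl2 (-0.13 to 0.29, block -0.036) and Plod2 (-0.21 to 0.10, and 0.065 without PSC4 replicate 1) with neratinib against control medium, Lox (block 0.082) and Loxl1 (-0.069 to 0.27) in CM against TGF-beta, and P4ha2 with neratinib against TGF-beta (-0.54 to 0.12). Where a library or setting changed a call, the cause was not tested. With 4 or 5 libraries per group, values not called are not shown to be alike.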
